A study of Mus musculus with 18 samples.

Results

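The comparison described here set ribosome pulldowns of Nav1.8-expressing sensory neurons against the whole ganglion extract they were taken from, in mice treated with paclitaxel. It used the pulldown (TRAP) and input libraries of biosamples 5 to 8, which are 10 of the 18 samples. Biosample 7 consisted of 2 assays, labelled as subsamples, and these were averaged within each fraction. This left 8 values per gene in 4 pairs. Of 22021 genes listed, 13611 reached 1 CPM in 4 or more of these values and were tested. CPM are counts scaled to a common library total over the listed genes, so each value is a share of its library.

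Nav1.8, the product of Scn10a, is a voltage-gated sodium channel that carries much of the action potential current of nociceptors, the sensory neurons that detect damaging stimuli. Translating ribosome affinity purification (TRAP) recovers tagged ribosomes from 1 cell type of a tissue, together with the mRNAs bound to them, so a pulldown reads out ribosome-bound mRNA and an input reads out the mRNA of all cells. Dorsal root ganglia hold the cell bodies of nociceptors, of large myelinated touch and position neurons, and of many more satellite glia, Schwann cells, fibroblasts, vessel cells and macrophages. Paclitaxel binds the beta-tubulin of microtubules and stabilises them, and as a cancer drug it can cause a painful neuropathy.

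All mice in these groups carried both transgenes. Rosa26fsTRAP holds an EGFP-L10a fusion behind a stop that Cre removes, and Nav1.8cre expresses Cre recombinase from the Scn10a promoter, on a C57BL/6J background. The tag therefore marks every neuron in which that promoter has been active, and it is not limited to nociceptors. Male and female littermates of 8 to 12 weeks received 4 intraperitoneal injections of paclitaxel at 4 mg/kg in cremaphor vehicle on alternate days over 8 days, a cumulative 16 mg/kg. The paclitaxel input group is the detergent-treated extract after nuclei and mitochondria had been spun out, and the paclitaxel TRAP group is the anti-GFP pulldown from the same extract. The normal groups, used only for 1 test at the end, came from biosamples 1 to 4 of the same genotype. The labels do not state whether these were the vehicle-injected mice that the treatment notes mention. Nor do they give the number of mice behind a biosample, so p-values measure the spread between these samples.

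The inputs held 6398739 to 12371031 reads and the pulldowns 10576016 to 32713514. The inputs were alike in breadth, with 13831 to 14043 genes at 1 CPM or more. The pulldowns were not. TRAP 5 reached 1 CPM in 10884 genes, TRAP 6 in 10399, the subsamples of TRAP 7 in 8081 and 11945, and TRAP 8 in 13228. Subsample 1 of TRAP 7 was at 0 in 3098 of the tested genes, against 196 in TRAP 8. The change from input to TRAP correlated across the 13611 genes at 0.29 between the 2 subsamples of biosample 7, and at 0.33 to 0.48 between all other pairs of assays. Genes are not independent replicates, so these are descriptions. TRAP 7 subsample 1 and TRAP 8 thus stood apart in opposite directions. Some results are given below with a biosample left out, and some list counts with 1 subsample of biosample 7 alone. A list given without such counts is not thereby shown to be stable.

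The gene that drives Cre was examined first. Scn10a (ENSMUSG00000034533.9) lies on the minus strand of GRCm38 chromosome 9, from 119608456 to 119719322. It had 598, 647, 472 and 533 CPM in the inputs of biosamples 5, 6, 7 and 8, and 1633, 1601, 989 and 1398 CPM in the pulldowns. Every pulldown was above every input. The log2 change was 1.30 (limma adjusted p = 4.97e-07), and it stayed between 1.25 and 1.38 when each biosample was left out in turn. Rpl10a, the ribosomal protein gene whose product is fused to GFP in the tag, had 18.3, 15.1, 28.1 and 29.2 CPM in input and 43.7, 34.7, 124 and 42.7 CPM in TRAP. It rose by 1.25 (SE 0.342, adjusted p = 0.00948), and without biosample 7, where the pulldown was highest, it did not pass (0.96, adjusted p = 0.0951). Whether some of these reads came from the transgene was not tested.

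Of the 13611 genes, 956 (7.02%) were higher in TRAP and 3493 (25.7%) were lower at a limma adjusted p under 0.05, with biosample as a block. The median log2 change of all tested genes was -0.55. CPM are shares of a fixed total, so the split between higher and lower depends on the scaling. It depends on the test as well, and edgeR differs from the main fit in both. With the CPM unchanged, limma without its intensity trend called 264 genes higher and 1729 lower. Higher genes made up 21.5% of the called genes with the deposited CPM, 40.4% with median-ratio scaling (1608 higher, 2369 lower), 49.6% with quantile normalization (1676 and 1702) and 71.0% with edgeR on recovered reads (1367 and 559). These alternatives moved the median of all genes by 0.26, 0.59 and 0.22. A core of 872 higher and 555 lower genes was called in the same direction under all 4, and no gene called lower turned into a gene called higher. Where the text calls a gene lower, it refers to its share of the CPM total. Counts per list below are to be read beside the 7.02% higher and 25.7% lower of all tested genes. Where a list count gives "under all scalings", it is how many calls were shared by the 4, of which edgeR is also another test. Of the 3493 lower genes, edgeR kept 559, median-ratio scaling 2369 and quantile normalization 1662. The number of falls under all scalings therefore follows edgeR closely, and a fall outside it may hold under the other scalings.

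Most markers of the other cells of the ganglion were lower in the pulldowns, and most remained measurable there. Of 15 satellite glia markers 13 fell and 0 rose (median -2.12, 7 lower under all scalings). Fabp7, a lipid-binding protein typical of satellite glia, had 242, 135, 228 and 194 CPM in input and 28.4, 20.3, 38.5 and 41.6 CPM in TRAP, a fall of 2.61 on the log2 scale (limma adjusted p = 8.33e-08). Apoe, the lipid carrier, fell by 1.77. S100b, a calcium-binding protein, stood at 2509 ± 154 CPM in the inputs against 2193 ± 272 CPM in the pulldowns (SD, n = 4) and did not pass (log2 change -0.20, adjusted p = 0.230). Of 16 myelinating Schwann cell markers 14 fell and 0 rose (median -1.81, 10 under all scalings). Mbp, myelin basic protein, had 1053, 862, 1234 and 980.4 CPM in input and 286, 247, 380.5 and 313 CPM in TRAP, with no overlap (log2 change -1.75, SE 0.127, adjusted p = 1.47e-08). Of 8 markers of nonmyelinating and Remak Schwann cells 5 fell and 2 rose (median -0.59, 1 fall and 2 rises under all scalings), and 3 fell without biosample 5. The risers were L1cam, an adhesion molecule, at 0.96 and Ngfr, the p75 neurotrophin receptor, at 0.82, both of which sensory neurons also express. L1cam overlaps Arhgap4 on the same strand. In the summed list the myelinating Schwann cell share went from 7521 to 9943 CPM in input to 2404 to 3130.5 CPM in TRAP, and that of satellite glia from 5296 to 6275 CPM to 4016 to 4811 CPM, where S100b and the cholesterol synthesis gene Hmgcs1 made up most of the remainder.

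Connective tissue and vessel genes were lower too. All of the 13 fibroblast genes that passed, of 15, fell (median -2.48, 11 under all scalings). Col1a1, a collagen chain, had 561, 597, 948 and 645 CPM in input and 51.6, 89.4, 160.1 and 160.3 CPM in TRAP (log2 change -2.68, adjusted p = 6.04e-09). Dcn, which encodes the matrix proteoglycan decorin, fell by 2.60. The summed fibroblast list had 6379 to 8465 CPM in input and 990.2 to 2451 CPM in TRAP. Of 14 endothelial markers 12 fell and 0 rose (median -1.86, 1 under all scalings), and 7 fell without biosample 5 and 6 without biosample 7. Among them was Cdh5, the VE-cadherin of endothelial junctions, from 33.1 to 37.3 CPM in input to 0.130, 4.52, 1.06 and 8.13 CPM in TRAP (adjusted p = 7.53e-04). Egfl7 was the exception among them, with 87.5 to 114 CPM in input and 118 to 130.3 CPM in TRAP (log2 change 0.35, adjusted p = 0.147). It overlaps Gm20532 on its own strand and Agpat2 on the other, and the counting does not state a strand. Pericyte and smooth muscle markers fell in 7 of 11 cases and rose in 0 (median -1.70, 0 under all scalings), and 4 fell without biosample 5 or without biosample 7. With subsample 1 of biosample 7 alone, 3 pericyte and smooth muscle markers and 8 endothelial markers fell, and with subsample 2 alone 6 and 10.

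Of 16 macrophage markers 11 fell and 0 rose (median -1.78, 2 under all scalings). With either subsample of biosample 7 alone, 8 fell. Mrc1, the mannose receptor of tissue macrophages, had 46.6, 48.7, 53.1 and 43.9 CPM in input and 1.31, 0.0300, 4.91 and 12.1 CPM in TRAP (log2 change -3.73, adjusted p = 3.07e-04). The summed macrophage list held 269.9 to 381 CPM in input and 65.0 to 123 CPM in TRAP. Neutrophil and other leukocyte genes fell in 7 of 9 cases (median -2.04), among them S100a8, a neutrophil alarmin, from 298 to 832 CPM in input to 47.6 to 263 CPM in TRAP. Without biosample 5 or without biosample 7, 5 of the leukocyte genes fell. Red cell genes fell in 7 of 8 (median -1.98) and skeletal muscle genes in 8 of 9 (median -1.73). Hbb-bs, a haemoglobin chain, had 562, 430.0, 1494 and 919 CPM in the inputs, which differed by biosample. Between inputs, fewer cells of a type and less RNA per cell cannot be told apart. Biosamples 7 and 8 were the higher ones in both fractions, with 291 and 271 CPM in TRAP against 89.6 and 96.4 CPM in TRAP 5 and 6. None of the 10 lists of other cell types was at 0 in the pulldowns, and each of their summed levels was lower in TRAP in 4 of 4 pairs except that of nonmyelinating Schwann genes, which was higher in 1.

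**Figure D1:**
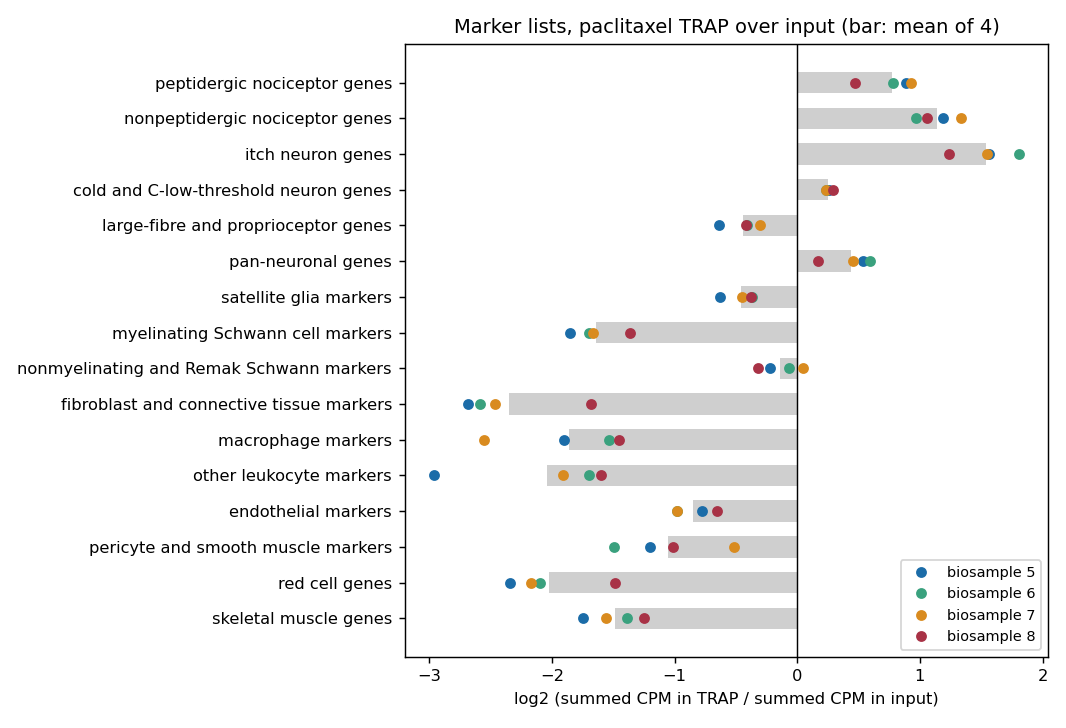
Summed CPM of each marker list in TRAP over input, as log2 ratios, for biosamples 5 to 8 (points) and their mean (bar). Nociceptor, itch, cold and C-low-threshold and pan-neuronal lists lie to the right of 0 in all 4 biosamples. Nmb made up most of the itch sum and Piezo2 most of the cold and C-low-threshold sum. By gene, 1 of 13 tested itch genes rose and 2 fell. Of 9 tested cold and C-low-threshold genes 1 rose and 4 fell (median -1.41). Large-fibre neuron genes and the lists of other cells lie to the left, apart from 1 biosample for nonmyelinating Schwann genes, and by mean fibroblast genes lie farthest left among the other cell types.

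Genes of nonpeptidergic nociceptors, small neurons that carry few neuropeptides and end in the skin, were raised in the pulldowns. Of 13 tested genes of this class 11 rose and 0 fell (median 0.77), and all 11 rose under all scalings. Mrgprd (ENSMUSG00000051207.7, chromosome 7, 145314835 to 145324086, plus strand), a receptor that defines them, had 22.6, 20.7, 37.2 and 20.8 CPM in input and 108, 130.1, 136 and 48.7 CPM in TRAP. All pulldowns were above all inputs and TRAP 8 was the lowest of them (log2 change 1.96, SE 0.283, adjusted p = 5.52e-05). Tmem233, a small transmembrane protein of sensory neurons, had 771, 830.2, 941 and 994 CPM in input and 2413, 2454, 3117 and 2766 CPM in TRAP (1.60, SE 0.121, adjusted p = 1.88e-08). Ret, the signalling receptor for GDNF family ligands, rose by 1.02, the semaphorin receptor gene Plxnc1 by 1.03 and the kainate receptor gene Grik1 by 0.90. The summed list had 2689 to 3068 CPM in input and 5276 to 7073 CPM in TRAP. P2rx3, the ATP-gated channel of these endings, averaged 15.5 ± 7.22 CPM in the inputs and 24.4 ± 8.82 CPM in the pulldowns (SD, n = 4) and did not pass (adjusted p = 0.269). When single biosamples were left out, 7 to 10 of the 13 passed, with 7 without biosample 7.

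Peptidergic nociceptors release the neuropeptides CGRP and substance P. Of 15 genes of this class 5 rose and 1 fell (median 0.40, 4 rises under all scalings). Calca (ENSMUSG00000030669.13, chromosome 7, 114631478 to 114636357, minus strand), which encodes CGRP and calcitonin, had 1052, 1073, 1409.8 and 1309 CPM in input and 1994, 1803, 2976 and 1719.9 CPM in TRAP (log2 change 0.79, SE 0.132, adjusted p = 2.42e-04). Its neighbour Calcb, the second CGRP gene, rose by 0.80. Gal, which encodes galanin, rose by 1.10 (adjusted p = 0.00786), with no rise in biosample 8, where it was 46.2 CPM in input and 45.6 CPM in TRAP. Trpv1, the capsaicin receptor, had 31.8, 28.1, 40.8 and 27.7 CPM in input and 38.0, 57.4, 103 and 35.2 CPM in TRAP. It was higher in each pair without passing (0.73, adjusted p = 0.0711). Prokr2, a prokineticin receptor, was the 1 gene that fell (-1.88, adjusted p = 0.0422; not passing without biosample 5, 6 or 8), with 4.46 and 4.77 CPM in the 2 fractions of biosample 7. With biosamples 7 and 8 alone 2 of the 15 rose and 0 fell, against 8 of the 13 nonpeptidergic genes.

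Itch neuron genes gave few calls, 1 higher and 2 lower of 13 (median 0.34), with 2 higher without biosample 6. The higher one was Nmb, which encodes neuromedin B, a peptide of itch-related neurons. It had 343, 272, 391 and 428 CPM in input and 1571, 1639, 1608 and 1492 CPM in TRAP, so that every pulldown was well above every input (log2 change 2.15, SE 0.138, adjusted p = 4.35e-09). Nmb overlaps Sec11a on the same strand, so that reads of the 2 cannot be separated with certainty. Osmr, the receptor for oncostatin M, fell by 1.72, and the GDNF coreceptor gene Gfra1 fell by 0.69. Neither passed without biosample 6 (adjusted p = 0.119 and 0.0911), and 0 of the falls held under all scalings. Trpa1, an irritant receptor, had 11.9, 9.46, 16.7 and 15.3 CPM in input and 45.4, 19.1, 39.2 and 21.5 CPM in TRAP, which did not overlap and yet missed the threshold (1.11, adjusted p = 0.0695).

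**Figure D2:**
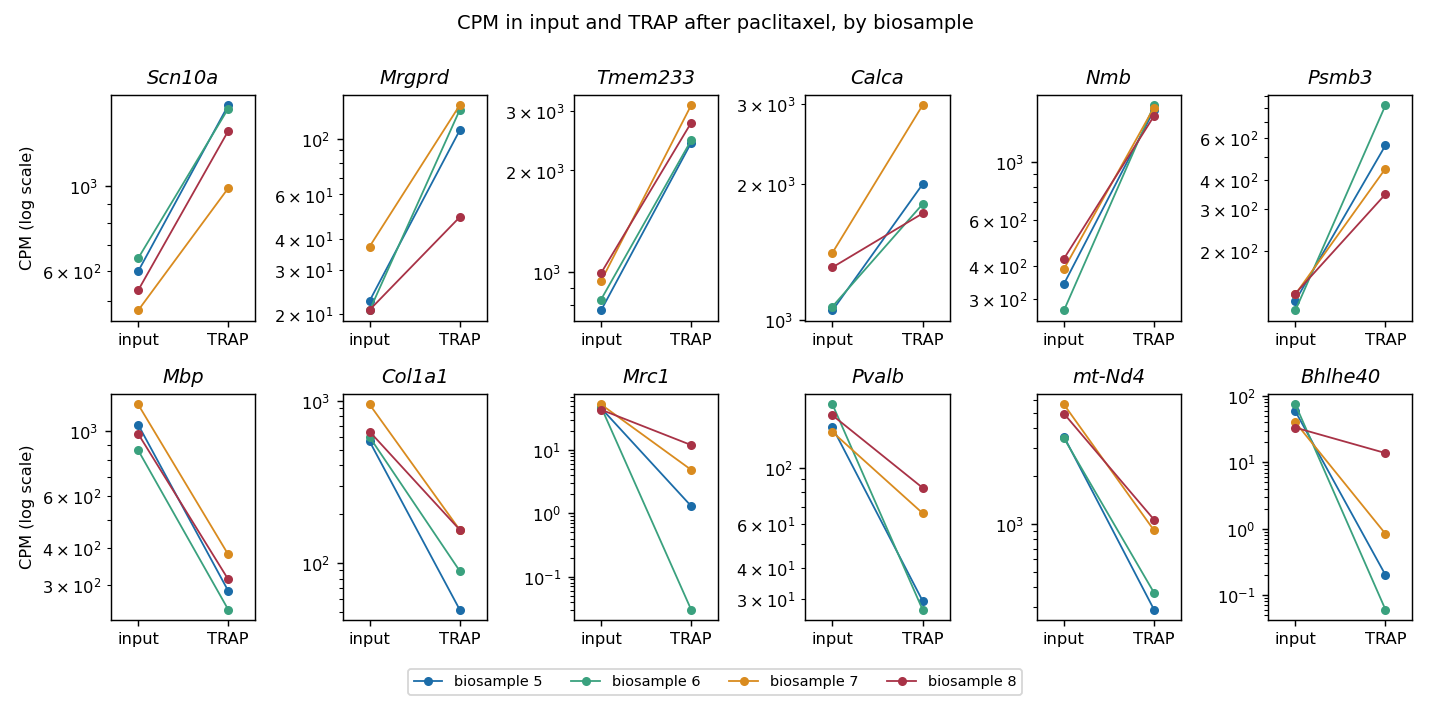
CPM (log axis) of 12 genes in input and TRAP, with lines joining the fractions of biosamples 5 to 8. Scn10a, Mrgprd, Tmem233, Calca, Nmb and Psmb3 go up in every pair, while Mbp, Col1a1, Mrc1, Pvalb, mt-Nd4 and Bhlhe40 go down in every pair.

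Genes of the large myelinated touch and position neurons fell, in contrast to those of nociceptors. Of 19 tested 14 fell and 1 rose (median -1.21, 5 falls under all scalings), and the riser was Ret, which both lists hold. Pvalb, a calcium buffer of proprioceptors that skeletal muscle also expresses, had 145, 179, 139 and 162 CPM in input and 29.6, 27.3, 66.1 and 83.4 CPM in TRAP (log2 change -1.73, adjusted p = 8.37e-05). The neurotrophin receptor genes Ntrk2 and Ntrk3 fell by 1.41 and 0.86, and Etv1, a transcription factor of proprioceptors, fell by 1.25. Nefh, the heavy neurofilament chain, fell by 0.77 and Kcna2, a potassium channel of myelinated axons, by 1.21. Runx3, which proprioceptors need for their identity, was at 12.2 to 16.4 CPM in input and at 0.0700, 0, 3.28 and 5.86 CPM in TRAP. It fell by 2.67 (adjusted p = 0.00658) and did not pass in edgeR (adjusted p = 0.194). Genes of cold-sensing and C-low-threshold mechanoreceptor neurons, which include some Nav1.8 neurons, were mixed. Piezo2, the touch channel, rose by 0.51 with 591 to 609 CPM in input and 738 to 911 CPM in TRAP. The transcription factor genes Foxp2 (-2.31) and Zfp521 (-2.28) fell, in each case with a value near 0 in TRAP 6. In all, 1 of 9 rose and 4 fell (median -1.41, 1 fall under all scalings). Without biosample 6, 2 fell and the median was -0.75, and in biosamples 7 and 8 alone 1 fell.

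Of 27 neuronal transcription factors, listed apart from the classes, 4 rose, 11 fell and 12 did not pass (median -0.43), and 2 rose without biosample 6. Tlx3, a determinant of nociceptor and itch neuron fate, had 91.0, 111, 102 and 105 CPM in input and 276, 359, 119.5 and 212 CPM in TRAP (log2 change 1.13, adjusted p = 5.84e-04). The biosample 7 value was the lowest of the pulldowns and still above the inputs. Shox2, a factor of touch neurons, fell by 2.29, Maf fell by 1.46 and Hoxc8, a position gene of the body axis, by 3.85. Genes common to all neurons were 10 higher and 5 lower of 20 (median 0.44). Uchl1, a ubiquitin hydrolase abundant in neurons, had 2528, 2741, 2238 and 3354 CPM in input and 8714, 10314, 5626 and 5133 CPM in TRAP (1.41, adjusted p = 5.61e-06). Elavl2, an RNA-binding protein, fell by 0.92 and the dendritic microtubule protein gene Map2 fell by 1.24.

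Among 11 sodium channel subunits 4 rose, 3 fell and 4 did not pass (27.3% lower against 25.7% of all genes). Under all scalings 4 rises and 0 falls held. The nociceptor channels Scn10a, Scn9a and Scn11a rose. Scn9a, which encodes Nav1.7, had 516, 567, 550.4 and 593 CPM in input and 908, 931, 927 and 1024 CPM in TRAP (log2 change 0.77, SE 0.123, adjusted p = 1.48e-04), and Scn11a rose by 0.77. The regulatory subunit gene Scn2b rose by 0.96. Scn8a, the channel of nodes of Ranvier in myelinated axons, had 281, 309.8, 268 and 332 CPM in input and 138, 197, 102 and 242 CPM in TRAP (-0.88, adjusted p = 7.58e-04), and Scn1a fell by 0.83. Neither fall passed in edgeR (adjusted p = 0.0681 and 0.126), whereas Scn9a and Scn11a did (6.75e-04 and 0.00138).

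Among calcium channel subunits 2 of 15 rose and 4 fell (26.7% lower against 25.7% of all genes, median -0.50, 0 falls under all scalings). The falls were 2 without biosample 5 or 8, and the rises 1 without biosample 7 or 8. Cacna2d1, the alpha-2-delta subunit that gabapentin binds, rose by 0.62, from 222 to 348 CPM in input to 381 to 432 CPM in TRAP. The P/Q-type channel gene Cacna1a fell by 1.30. The T-type channel gene Cacna1h, at 6.91 to 20.0 CPM in input and 1.50 to 2.40 CPM in TRAP, fell by 2.18. Of 44 potassium channel subunits 6 rose, 7 fell and 31 did not pass (15.9% lower, median -0.38, 4 falls without biosample 6). The sodium-activated channel gene Kcnt1 rose by 1.03, Kcnd1 of the A-type current by 0.82 and Kcna6 by 0.78. Kcnq3, a subunit of the M-current, fell by 1.52 and Kcnh2 fell by 1.76. In the HCN family, the pacemaker channels, Hcn3 had 23.7, 31.8, 33.9 and 36.0 CPM in input and 50.3, 85.3, 81.5 and 84.0 CPM in TRAP. Every pulldown was above every input (log2 change 1.22, adjusted p = 0.00202), and the rise held under all 4 scalings.

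Sensory transduction channels gave 5 rises and 4 falls among 22 (median 0.27, 2 falls without biosample 8). Asic3, an acid sensor, rose by 1.41 and Trpv2 by 1.10. The broadly expressed channel kinase gene Trpm7 fell by 1.28 and Trpc1 fell by 1.61. Of 24 GABA and glutamate receptor subunits 3 rose and 7 fell (29.2% lower against 25.7% of all genes, median -0.65, 3 rises and 3 falls under all scalings). Gabbr1, a subunit of the metabotropic GABA-B receptor, had 378, 387, 381 and 375 CPM in input and 926, 996, 744 and 724 CPM in TRAP (log2 change 1.14, adjusted p = 4.20e-06). The GABA-A subunit gene Gabrg1 fell by 2.95. The AMPA receptor genes Gria2 (-2.47) and Gria3 (-2.13) fell. Of 12 opioid, cannabinoid and other inhibitory receptor genes 1 rose and 3 fell (a share near the 25.7% of all genes, median -0.97, 0 falls under all scalings), and 0 rose and 1 fell without biosample 5. Among them were the adenosine receptor gene Adora1 at 0.56 and the adrenergic receptor gene Adra2a at -2.30.

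Receptors for growth factors and inflammatory signals were divided too, with 6 higher and 9 lower of 21 (median -0.51, 5 lower without biosample 6). Besides Ret, Gfra3, the coreceptor for artemin, rose by 1.35 and Il6st, the shared signalling chain of the interleukin-6 family, by 0.59. The tumour necrosis factor receptor gene Tnfrsf1a had 45.5, 32.7, 66.3 and 62.9 CPM in input and 1.18, 8.65, 7.94 and 24.3 CPM in TRAP, a log2 change of -2.62 (adjusted p = 0.00105), and the interferon gamma receptor gene Ifngr1 fell by 1.86. Of 18 receptors for prostaglandins, kinins, histamine, serotonin and proteases 3 rose and 6 fell. Without biosample 6 or 7, 3 fell, and without biosample 5, 1 rose. Htr3a, a serotonin-gated channel, rose by 1.45, with 89.6, 52.8, 35.4 and 21.5 CPM in TRAP over 12.4 to 21.9 CPM in input. The endothelin receptor gene Ednrb and the lysophosphatidic acid receptor gene Lpar1, both known from glia, changed by -1.88 and -1.80. Of 12 cytokine and chemokine genes 10 fell and 0 rose (median -2.06, 1 under all scalings), and 5 fell without biosample 6. Their summed level was 159.6 to 194 CPM in input and 31.5 to 79.4 CPM in TRAP.

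Of 25 neuropeptide and dense-core granule genes 10 rose and 2 fell (median 0.40, 8 rises under all scalings), with 0 falls without biosample 5. The summed list went from 5881 to 7336 CPM in input to 10784 to 12299.8 CPM in TRAP. The granule protein gene Scg3 had 598, 527, 777 and 929 CPM in input and 1319.9, 1296, 2169.5 and 2068 CPM in TRAP (log2 change 1.27, adjusted p = 5.58e-07). Among 33 synaptic vesicle and SNARE genes 9 rose and 6 fell (median 0.04). These are 27.3% higher and 18.2% lower, against 7.02% and 25.7% of all tested genes. The calcium sensor gene Syt9 rose by 1.07 and Rph3a by 0.94. Snap25, a SNARE, fell by 0.74, and Slc17a7, which encodes the vesicular glutamate transporter of large sensory neurons, fell by 2.13. Fxyd2, a regulator of the sodium pump in nociceptors, had 293, 211, 371 and 418 CPM in input and 1070.5, 632, 1533 and 1232 CPM in TRAP (1.76, adjusted p = 1.88e-08). The sodium pump list had 4 rises and 5 falls of 12, with 2 rises without biosample 5 or 7 and 3 falls without biosample 7.

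The genes of the cytosolic ribosome moved together. Of 79 tested 54 rose and 0 fell (median 0.73 against -0.55 for all genes), and 49 of the rises were found under all scalings. Their summed share went from 19301 to 27676 CPM in input to 33491 to 45144 CPM in TRAP. Rpl27 (ENSMUSG00000063316.13, chromosome 11, 101442298 to 101445529, plus strand) had 195, 214, 246 and 252 CPM in input and 589, 745, 487 and 550.5 CPM in TRAP (log2 change 1.37, SE 0.152, adjusted p = 2.70e-06). Every pulldown was above every input, and Rpl23 rose by 1.32. The other 25 did not pass. Paralogs and pseudogenes of ribosomal protein genes share near-identical sequence, so single values may be split between copies. Leaving out single biosamples left 43 to 53 of the 79 higher.

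Ribosomal protein mRNAs are known to begin with a C followed by a run of pyrimidines, the 5′ terminal oligopyrimidine tract through which mTORC1 regulates their translation. RefSeq starts (GRCm38.p6) were given for 58 of the 79 genes, 73.4%, and for 76.4% of all tested genes. Both are below the 80% set as a minimum, so shares are void as a property of the genes and describe only the starts at hand. A C at the annotated start followed by at least 4 further C or T, read on the transcribed strand, stood at 14 of 68 starts of these genes (20.6%) and at 307 of 13364 starts of all tested genes (2.30%). The windows are shown for the 3 matched genes with the largest and the 3 with the smallest change, because such starts occurred both in genes that rose and in genes that did not. Each runs from 30 bases before to 15 bases after the start, and capitals mark the pyrimidine run from the start on.
Rpl38 (chr11:114668550-114668594, plus strand): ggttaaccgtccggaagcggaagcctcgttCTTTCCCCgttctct
Rps10 (chr17:27635230-27635274, minus strand): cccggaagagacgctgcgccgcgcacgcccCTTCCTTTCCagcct
Rpl35a (chr16:33056452-33056496, plus strand): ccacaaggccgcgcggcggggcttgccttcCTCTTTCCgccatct
Rps18 (chr17:33955651-33955695, minus strand): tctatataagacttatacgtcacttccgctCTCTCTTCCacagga
Rps27 (chr3:90213634-90213678, minus strand): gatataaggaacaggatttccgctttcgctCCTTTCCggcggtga
Rpl28 (chr7:4792935-4792979, plus strand): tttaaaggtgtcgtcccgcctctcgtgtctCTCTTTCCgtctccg
The run was 8 bases long in Rpl38, 10 in Rps10, 8 in Rpl35a, 9 in Rps18, 7 in Rps27 and 8 in Rpl28. The first 4 genes rose by 1.10, 0.92, 0.91 and 0.62 and the last 2 did not pass, at 0.19 and -0.09 (limma adjusted p = 0.590 and 0.928). A match in this window is a description of letters and shows no regulation.

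Translation factors were less uniform than ribosomal proteins. Of 43 tested 11 rose and 5 fell (median 0.12, 3 falls without biosample 5 or 6). Of the rises, 6 were subunits of eIF3, the scaffold of initiation, led by Eif3k with 98.1, 86.5, 124 and 122 CPM in input and 292, 344, 338 and 227 CPM in TRAP (log2 change 1.47, adjusted p = 7.32e-06). Eif3d rose by 1.23. The poly(A)-binding protein gene Pabpc1 fell by 0.69 and the scaffold gene Eif4g3 by 0.97. Of 22 aminoacyl-tRNA synthetase genes 3 rose and 2 fell (1 without biosample 8), with the glycyl enzyme Gars at 0.88 and the glutaminyl enzyme Qars at -1.30. In the mTORC1 and Rag-Ragulator list, which the title of the series names as its subject, 2 of 32 rose and 6 fell (median -0.11). These are 6.25% higher and 18.8% lower, against 7.02% and 25.7% of all tested genes. Under all scalings 2 rises and 0 falls held, and 1 gene of the list fell without biosample 6. Lamtor4, a Ragulator subunit, rose by 1.23 and Rraga, the RagA GTPase, by 0.69, from 246, 234, 193 and 159 CPM in input to 484, 314, 325 and 246 CPM in TRAP (adjusted p = 0.00188). Tsc2, an inhibitor of the pathway, fell by 1.33, and the folliculin partner gene Fnip1 by 2.25.

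All 11 tested mRNAs of the mitochondrial genome fell (median -2.93, 9 under all scalings). mt-Nd4, a complex I subunit, had 3541, 3468, 5647 and 4946 CPM in input and 289, 369, 911 and 1064 CPM in TRAP (log2 change -2.92, adjusted p = 1.08e-09). mt-Cytb fell by 3.42. In both fractions biosamples 7 and 8 held more of these mRNAs than 5 and 6, with 3052, 2698, 7298 and 6639 CPM of mt-Cytb in input. The summed list had 10118 to 21682 CPM in input and 986 to 4137 CPM in TRAP.

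Nuclear genes for subunits of the respiratory chain rose more often than they fell. Of 37 complex I subunits 23 rose and 0 fell (median 0.73), all 23 under all scalings. Ndufv3 had 43.2, 43.4, 76.0 and 81.8 CPM in input and 190.2, 179.9, 270.2 and 249 CPM in TRAP (log2 change 1.89, adjusted p = 5.62e-07), and Ndufa3 rose by 1.59. In complexes II to V 20 of 39 rose and 4 fell (median 0.49, 2 falls without biosample 5 or 8), with the ATP synthase subunit gene Atp5g3 at 1.07 and the catalytic subunit gene Atp5b at -0.44. The enzymes of the tricarboxylic acid cycle did not share this. Of 16 tested 0 rose and 6 fell (median -0.48, 0 under all scalings), among them Idh3a at -0.85 and Pdha1 at -0.85. Among mitochondrial ribosomal proteins 14 of 77 rose and 5 fell (median 0.30), and 3 fell without biosample 6 or 8. Mrps12 rose by 1.31, and Mrpl33 fell by 2.68, from 271, 258, 402 and 429 CPM in input to 21.6, 17.8, 116 and 146 CPM in TRAP. Glycolysis genes were 3 higher and 3 lower of 16. Of 30 import and assembly genes 8 rose and 2 fell (median 0.16, 5 rises without biosample 5, 0 falls without biosample 5 or 6), with the complex I assembly gene Timmdc1 at 1.56.

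In the proteasome list 18 of 36 were higher and 0 lower (median 0.49, 16 rises under all scalings). Psmb3, a beta subunit of the core, had 123, 112, 131 and 132 CPM in input and 558, 824, 445 and 347 CPM in TRAP (log2 change 2.05, SE 0.189, adjusted p = 2.77e-07). Psmb1 rose by 1.20 and the regulatory particle gene Psmd4 by 1.01. Of 28 ubiquitin genes and conjugating enzymes 4 rose and 5 fell (median 0.02, 3 falls without biosample 6), with the conjugating enzyme gene Ube2g1 at -1.66. Of 32 chaperone genes 13 rose and 4 fell (median 0.33, 1 fall without biosample 5 and 2 without 6 or 7), with the chaperonin subunit gene Cct7 at 1.20 and Hsp90aa1 at 0.99. The mitochondrial chaperone gene Hspd1 fell by 0.46. Of 30 lysosomal and V-ATPase genes 12 rose and 1 fell (median 0.35, 0 falls without biosample 5 or 7), led by the proton pump gene Atp6v0e2 at 1.21. Among antioxidant genes 7 of 25 rose and 3 fell, with 1 fall without biosample 6 or 8. Sod1, superoxide dismutase, had 368, 296, 695 and 771 CPM in input and 1019.8, 741, 1999.8 and 1572 CPM in TRAP (1.33, adjusted p = 5.35e-07), and the selenoprotein gene Sepw1 rose by 1.67.

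**Figure D3:**
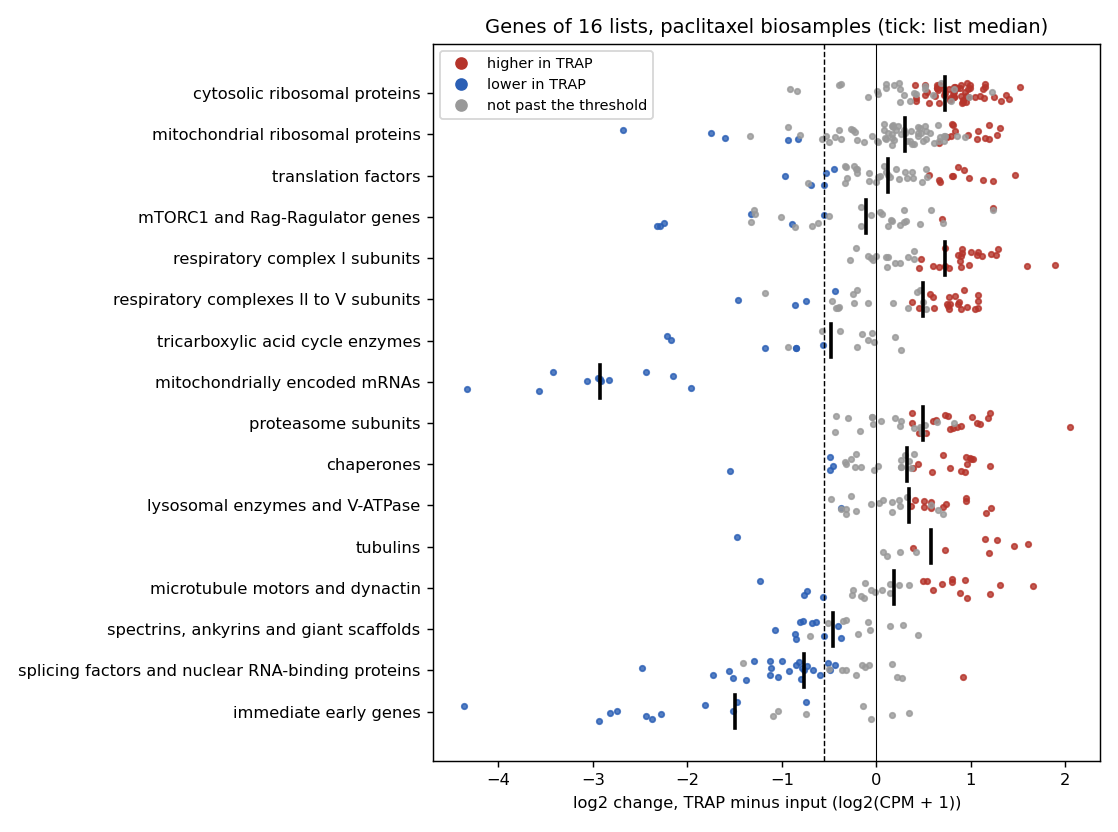
Log2 change (TRAP minus input) of each tested gene in 16 lists, 1 point per gene, coloured by its limma call, with the list median as a vertical tick and the median of all tested genes as a dashed line at -0.55. Ribosomal protein, complex I, proteasome and tubulin genes lie mostly right of 0, splicing factors and immediate early genes lie mostly left of it, and all mitochondrially encoded mRNAs lie left of it.

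Tubulins, the proteins that paclitaxel binds, were among the higher lists. Of 12 tested genes 7 rose and 1 fell (median 0.57, 6 rises under all scalings), and the summed share went from 9200.4 to 12259 CPM in input to 18458 to 23476 CPM in TRAP. Tubb2a (ENSMUSG00000058672.6, chromosome 13, 34074274 to 34078007, minus strand) had 745, 573, 842 and 1037 CPM in input and 2794, 2129, 2542 and 2094 CPM in TRAP (log2 change 1.60, SE 0.144, adjusted p = 2.37e-07). Tubb4b rose by 1.46, Tubb2b by 1.28 and Tubb5 by 1.19. Tubulin genes are close in sequence, so single values may be split between copies. The 1 fall, lost without biosample 5, 6 or 7 (adjusted p = 0.0682, 0.0698 and 0.0964), was Tubb6, at 1.74 to 3.52 CPM in input and 0 to 1.51 CPM in TRAP, and with quantile normalization its sign turned (0.16, adjusted p = 0.767). Whether the tubulin change depended on treatment was covered by the test against normal mice, in which no tubulin gene passed (Tubb2a difference 1.33, adjusted p = 0.200). The median change of the tubulin list in normal mice was 0.39, and the median difference over the list was 0.14.

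Of 26 microtubule-associated genes 8 rose and 4 fell (median 0.14). The tubulin chaperone gene Tbcb rose by 1.32 and the autophagy gene Map1lc3a by 1.08. Map2 had 513, 606, 418 and 393 CPM in input and 163, 181, 224 and 248 CPM in TRAP (log2 change -1.24, adjusted p = 3.58e-05). Of 28 motor and dynactin genes 12 rose and 4 fell (median 0.19). Dynlrb1, a dynein light chain, rose by 1.31 and the dynactin gene Dctn3 by 1.20, while Kif1c, a kinesin, fell by 1.23. Neurofilament and related filament genes went down in 5 of 9 cases, with the light neurofilament gene Nefl at -0.68, and up only in Prph, the filament of small sensory neurons, at 0.66. Nefl did not pass in edgeR (adjusted p = 0.139) or with median-ratio scaling (0.0564). Of 20 very large scaffold genes 10 fell and 0 rose (median -0.46, against -0.55 for all genes, 1 fall under all scalings). The falls included the ankyrin gene Ank3 at -0.68 and the presynaptic scaffold gene Pclo at -0.78. With subsample 1 or 2 of biosample 7 alone, 9 and 5 of the scaffold genes fell. Of 24 actin genes 7 rose and 4 fell, and 4 rose without biosample 7 or 8. Actb rose by 1.02 and the myosin light chain gene Myl6 by 1.30, and Marcks, a membrane-actin linker, fell by 1.83. In the axon guidance list 4 of 28 rose and 11 fell (median -0.94), and 2 rose without biosample 7 or 8.

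Of 35 splicing factors and nuclear RNA-binding proteins 23 fell and 1 rose (median -0.77, against -0.55 for all genes, with 6 falls under all scalings). Srsf1 (ENSMUSG00000018379.17, chromosome 11, 88047373 to 88053755, plus strand), an SR splicing factor, had 266, 304, 190.3 and 194 CPM in input and 58.4, 75.5, 65.0 and 83.8 CPM in TRAP (log2 change -1.73, SE 0.192, adjusted p = 2.73e-06). Sf3b1, of the spliceosome, fell by 1.52 and the helicase gene Ddx17 by 1.38. The 1 rise was U2af1, at 0.92, which did not pass without biosample 5 (0.64, adjusted p = 0.0564). Of 30 chromatin regulators 11 fell and 1 rose (36.7% lower against 25.7% of all genes, median -0.65, 1 fall under all scalings), with the histone methyltransferase gene Kmt2c at -1.89 and the remodeller gene Chd3 at 1.05. With subsample 1 or 2 of biosample 7 alone, 6 and 10 chromatin regulators fell. Ubiquitously expressed genes such as these are read in input from all cells of the ganglion, so the comparison does not separate cell type from ribosome loading.

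Immediate early genes, which stimulation and dissection induce within minutes, fell in 11 of 18 cases and rose in 0 (median -1.50, 3 under all scalings). Arc, which encodes a synaptic protein, was at 0 in all 4 pulldowns and at 1.13 to 2.25 CPM in input, and with Arc set to its bound at a floor of 3 reads per library the list median was -1.36. Bhlhe40 (ENSMUSG00000030103.11, chromosome 6, 108660629 to 108666925, plus strand), a transcriptional repressor, had a large fall. It went from 58.8, 74.7, 40.1 and 33.4 CPM in input to 0.200, 0.0600, 0.835 and 13.8 CPM in TRAP (log2 change -4.37, SE 0.742, adjusted p = 2.64e-04). The level in TRAP 8 was far above that in the other pulldowns. Egr1 had 57.5, 73.0, 75.4 and 42.7 CPM in input and 8.32, 21.8, 4.40 and 16.4 CPM in TRAP (-2.38, adjusted p = 5.16e-04). Of 23 nerve injury and regeneration genes 3 rose and 9 fell (median -0.49, 2 rises and 1 fall under all scalings). The injury factor gene Atf3 was low in both fractions, at 5.11, 3.07, 3.22 and 4.28 CPM in input and 6.68, 11.1, 0 and 4.07 CPM in TRAP (adjusted p = 0.954). Klf4 fell by 2.03 and Jun by 0.75. Of 21 genes of the integrated stress and ER stress responses 3 rose and 2 fell (median -0.05, 1 fall without biosample 7). The ER chaperone genes Pdia4 and Calr rose by 1.05 and 0.67, and Xbp1 fell by 1.10. Among 22 interferon and antigen presentation genes 1 rose and 8 fell, and 4 fell without biosample 6 and 5 without biosample 5 or 8. With subsample 1 or 2 of biosample 7 alone, 3 and 9 of them fell. Ifi27 rose by 0.98 and Isg15 fell by 1.92.

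Some of the largest changes belonged to no list. Of the 12 genes with the largest rise among those with at least 20 CPM in TRAP and no overlap, S100a6, a calcium-binding protein, had the highest level. It had 1278, 1173, 1137 and 1200.3 CPM in input and 6604, 6559, 3250.2 and 3273 CPM in TRAP, so that its rise of 1.95 (adjusted p = 6.87e-08) was larger in biosamples 5 and 6. Serpina11, a serpin, had 6.23, 7.76, 7.18 and 7.34 CPM in input and 60.7, 57.6, 32.1 and 51.9 CPM in TRAP (2.63, adjusted p = 3.52e-04). Pafah1b3, a subunit of an acetylhydrolase of platelet-activating factor, rose by 2.50, the transporter gene Slc22a18 by 2.24, Tmem63c of a mechanosensitive channel family by 2.16, the glycosyltransferase gene A3galt2 by 2.16, Zfp428 by 2.07 and Tmem205 by 1.96. Rnasek had the largest value, 3.78 (adjusted p = 3.26e-04), with 96.4, 90.7, 77.9 and 40.7 CPM in TRAP. Its inputs were 29.6 and 26.1 CPM in biosamples 5 and 6 but 0 in 7 and 8. Rnasek overlaps Gm21988 on the same strand, and it did not pass in edgeR (adjusted p = 0.0570).

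At the other end, Lrrc17, a secreted leucine-rich protein, had 814, 715, 2665 and 2334 CPM in input and 21.0, 40.4, 147 and 455 CPM in TRAP (log2 change -3.96, SE 0.267, adjusted p = 6.04e-09). Cnot3, of a deadenylase complex, had 2955, 2177, 6382 and 4809 CPM in input and 69.3, 162, 324 and 1038 CPM in TRAP (-3.91, adjusted p = 1.47e-08). Both have high inputs in biosamples 7 and 8 and their highest pulldown in biosample 8. Lrrc17 lies over Fbxl13 and Cnot3 over Leng1 on opposite strands, so the source gene of these reads is uncertain. Other large falls were in Mboat1 (-4.13), Smpx (-4.13), Lect1 (-4.07) and Fgl2 (-3.93), each at 28.3 to 75.4 CPM in the inputs. TRAP 8 held 9.93 to 22.1 CPM of these 4 genes, against 0 to 2.30 CPM in the other 3 pulldowns.

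Among the named genes that passed, 24 lost the call with 1 biosample left out, all with the direction kept. Without biosample 5 these were Adora1, Adra2a, Atp5b, Cacna1h, Hagh, Htr3a, Isg15, Prkx, Prokr2, Trpc1, Tubb6 and U2af1 (limma adjusted p = 0.0509 to 0.214). Without biosample 6 they were Foxp2, Gfra1, Idh3a, Kcnh2, Osmr, Prkx, Prokr2, Tsc2, Tubb6 and Zfp521 (0.0511 to 0.160). Without biosample 7 they were 2010107E04Rik, Adora1, Adra2a, Hagh, Hspd1, Kcnh2, Osmr, Pdia4, Prkx, Rpl10a, Trpv2, Tsc2, Tubb6 and Zfp521 (0.0503 to 0.137). Without biosample 8 they were Atp5b, Cacna1h, Gfra1, Hagh, Kcnh2, Pdia4 and Prokr2 (0.0531 to 0.0917).

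The length of the coding sequence went with the direction of change, and so did that of the 3′ untranslated region. Coding lengths came from the GENCODE vM21 annotation, in which 13573 of the 13611 genes had one. The median was 904 nt in the higher genes, 1596 nt in the lower genes and 1410.0 nt in all. For the 3′ untranslated region the medians were 496, 1322 and 1014 nt in the same order, and for whole transcripts 1913, 3640 and 3055 nt. Which part of the transcript the change goes with was not tested. Among genes of up to 450 nt 22.0% were higher and 18.3% lower. In those over 6000 nt 1.34% were higher and 41.7% lower, and the shares changed in steps between. The median log2 change fell from -0.05 in the shortest class to -0.91 in the longest. This order held in each biosample, with rank correlations across genes of -0.16, -0.13, -0.14 and -0.13 in biosamples 5 to 8. Ribosomal protein and complex I genes are short and giant scaffolds are long, so length moves with the gene lists above, and its part in their changes was not tested. Called genes of both directions had higher levels than the rest, with a median input of 104 CPM in the higher genes, 32.7 CPM in the lower genes and 18.8 CPM in those that did not pass.

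**Figure D4:**
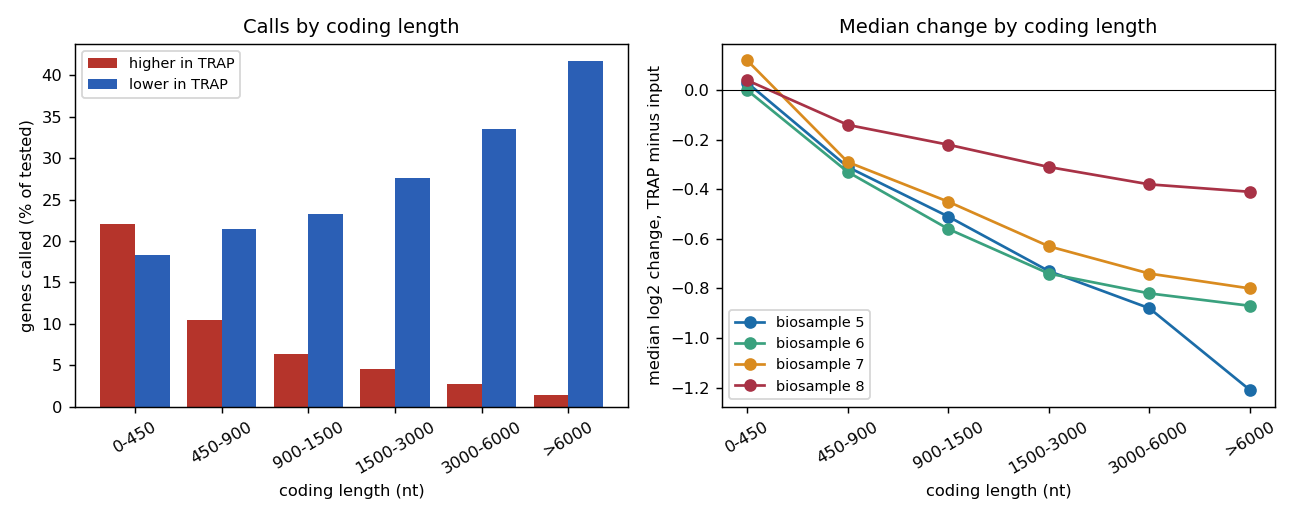
Left, the percentage of tested genes called higher and lower in TRAP in 6 classes of coding length. Right, the median log2 change per class in each biosample. The higher share goes from 22.0% to 1.34% and the lower share from 18.3% to 41.7% with length, and all 4 biosamples decline, biosample 8 least.

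Whether the change from input to pulldown differed from that in normal mice was tested as an interaction over all 16 pooled values. Of 14214 genes 27 (0.190%) passed in limma, 23 with a more positive change after paclitaxel and 4 with a more negative one. All genes named below as passing belong to the 23, and none of the 4 is named. The neurofilament and related filament list and the complex I list held 2 passing genes each, with median differences over the lists of -0.63 and 0.31. With median-ratio scaling 21 passed. In edgeR 0 passed, with 1203 genes at an unadjusted p under 0.05 against 1611 in limma, so these differences depend on the test. They also depend on single biosamples. The limma count was 0 without biosample 7 (1289 at an unadjusted p under 0.05), 3 without 5, 4 without 6, 5 without 2, 10 without 8, 36 without 1, 42 without 4 and 86 without 3. The normal pulldowns of biosamples 2 and 4 barely raised Scn10a, by 0.09 and 0.05, against 1.14 and 1.07 in biosamples 1 and 3 and 1.07 to 1.45 after paclitaxel. Without biosamples 2 and 4, a choice made after seeing these values, 11 genes passed, 9 of them among the 27.

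Of the 27 genes 14 were also called higher and 1 lower within the paclitaxel biosamples. Calca and 2010107E04Rik had the lowest adjusted p, and both passed without each of the other biosamples but not without biosample 7 (adjusted p = 0.0859 for each). The change of Calca was 0.79 after paclitaxel and -0.94 in normal mice, a difference of 1.72 (SE 0.253, adjusted p = 0.00660). All 4 normal pairs of Calca were below 0, at -0.82, -1.35, -0.55 and -1.03, and all 4 paclitaxel pairs were above it, at 0.92, 0.75, 1.08 and 0.39. Rpl37, a ribosomal protein gene, differed by 1.70 (adjusted p = 0.0197), with 1.24 after paclitaxel and -0.46 in normal mice. The actin gene Actg1 differed by 1.87 (adjusted p = 0.0139), the glyoxalase II gene Hagh by 2.61 (adjusted p = 0.0139), the kinase gene Prkx by 2.18, Card19 by 1.77, Fam189b by 1.81 and 2010107E04Rik by 1.63. The dynein light chain gene Dynlrb1 differed by 1.52 (adjusted p = 0.0420). None of the genes named here passed without biosample 7. Scn10a did not pass (0.72, adjusted p = 0.310), nor did Mrgprd (1.91, adjusted p = 0.0833), Rraga (1.51, adjusted p = 0.0752) or Bhlhe40 (-3.36, adjusted p = 0.0713). A difference that missed the threshold is not shown to be absent. Each treatment has its own biosamples, so anything else that differed between the 2 sets of biosamples cannot be told apart from it.

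**Figure D5:**
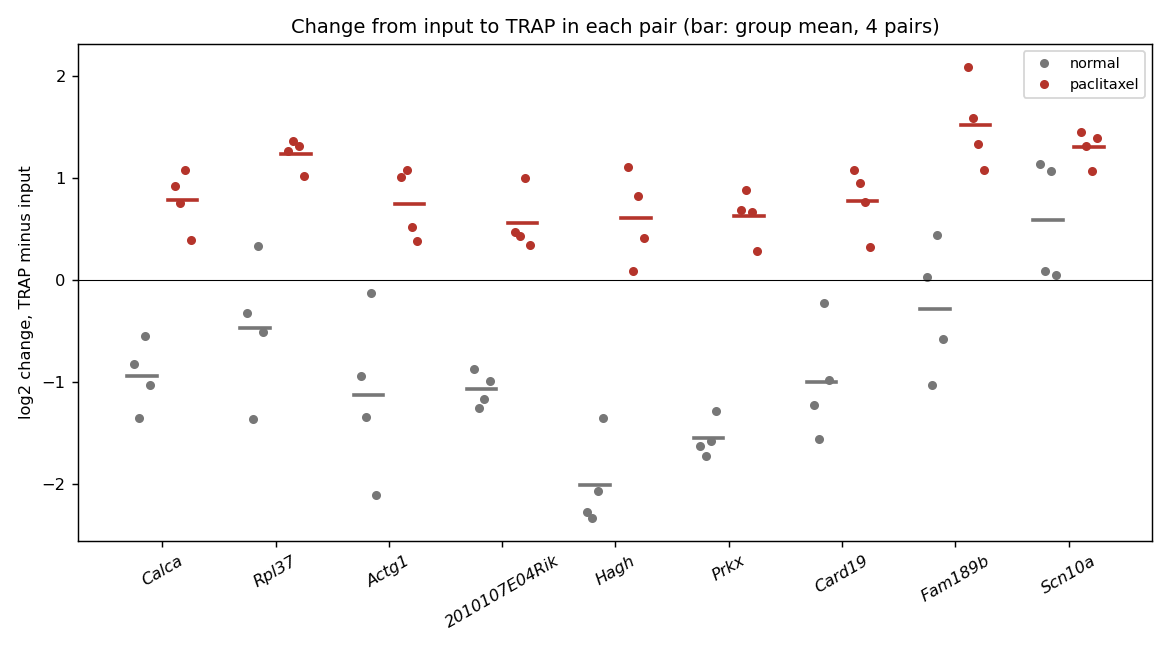
Log2 change from input to TRAP in each normal (biosamples 1 to 4) and paclitaxel (biosamples 5 to 8) pair, with group means as bars, for the 8 genes with the smallest interaction p among genes called after paclitaxel, and for Scn10a. The genes were chosen by this difference. All paclitaxel pairs lie above 0, and the normal pairs of the 8 genes lie below it except in 2 pairs of Fam189b and 1 of Rpl37.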

How the data were processed

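Ribosome pulldown and input libraries were made with a 3′ counting kit after rRNA depletion, per the labels' protocols. The submitters' processing notes name FastQC 0.11.5, TopHat2 2.1.1, Bowtie2 2.2.9, Cufflinks 2.2.1 and GRCm38.p4. The strand setting is not given in the sources used here. The deposited values are headed TPM per the file headers, but each column sums to the same fixed total and 98.0 to 99.0% of values are whole multiples of 1 step (tolerance 0.0051 CPM), so they were treated as CPM, with no correction for gene length. The analysis had been laid out for per-million values without naming which kind, and the log-scale test was kept.

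The 2 authors' merged columns were not used. Values were log2(CPM + 1), and genes reaching 1 CPM in 4 or more of 8 values were fitted in limma 3.58.1 (R 4.3.3), with intensity trend and biosample as a block, and Benjamini-Hochberg adjustment over 13611 genes. Fold changes on this scale understate the change of low genes. An exact test on 4 pairs alone cannot reach 0.05. The labels give an input and its pulldown the same biosample number, and this pairs them. Same-numbered fractions deviated together (correlations 0.14, 0.21, 0.18 and 0.19), but so did 5 with 6 and 7 with 8 (0.11 to 0.18), against -0.22 to -0.09 between these sets, so the check does not single out the number. edgeR 4.0.16 on recovered whole reads and the other settings listed at the end were alternatives. The fits were tested on simulated data for the paclitaxel comparison over 13611 genes, made differently for each tool. For limma the log values kept the biosample shifts and the spread of each gene. For edgeR the counts had no biosample effect and used the dispersions that edgeR estimates. The recoveries of the tools are therefore not comparable. With 4000 genes changed by 1 or 2 on the log2 scale limma recovered 1109 and 3185, with 45 and 132 false calls, and edgeR recovered 1047 and 2015, with 21 and 42. With 200 genes changed limma recovered 0 and 66 and edgeR 36 and 81, so few isolated changes can be found in 4 pairs. Mean estimates in limma were 0.99 to 2.05, close to the simulated 1 and 2. Gene lists and members were chosen with earlier results of these data known. The genes named are, by rule, the 12 largest changes per direction with at least 20 CPM and no overlap of the groups, up to 4 per list and direction by smallest p, all of short lists where described, and the 8 smallest interaction p among called genes. Some genes that the rule names are not reported here. Other named genes, such as Trpv1, Trpa1, P2rx3, S100b, Hmgcs1, Egfl7, Runx3, Kcnh2, Gfra3, Ank3, Atf3, Arc, Rpl23 and the genes of the printed starts, were chosen after their values were seen. Coordinates are from GENCODE vM21 on GRCm38. A floor is 3 reads per library, and covers counting error only.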

Additional observations from a re-analysis of the deposited data

Results flagged for a closer look

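In 11 of 180 named genes 1 pair stood far from the other 3, by Dixon's 95% criterion for 4 values. Chance alone marks about 1 group in 20 by this criterion. The named genes were chosen partly by their values, and whether the 11 arose by chance was not tested. In 5 of them biosample 8 was the one apart. Its log2 change was -1.36 in Fgl2 (others -4.92 to -4.62), -1.35 in Mboat1 (others -5.25 to -4.86), -1.21 in Hoxc8 (others -5.07 to -4.54), 0.50 in Gfra3 (others 1.55 to 1.70) and 1.09 in Ndufa3 (others 1.70 to 1.81). Biosample 7 stood apart in Gria3 at -4.03 and in Piezo2 at 0.29. Biosample 6 did so in Foxp2 at -4.61 and in Xbp1 at -2.10. Biosample 5 did so in Lamtor4 at 1.82 and in S100a8 at -2.95.

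The change from input to pulldown differed between paclitaxel and normal mice in 9 named genes in limma, by 1.63 in 2010107E04Rik, 1.87 in Actg1, 1.72 in Calca, 1.77 in Card19, 1.52 in Dynlrb1, 1.81 in Fam189b, 2.61 in Hagh, 2.18 in Prkx and 1.70 in Rpl37. None of these passed in edgeR or in limma without biosample 7.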

How the results depend on the processing

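The rise of Scn10a kept its direction and its side of the threshold under every alternative run, at 1.11 to 1.66 on the log2 scale and at 1.25 to 1.38 with each biosample left out. The count of higher genes moved from 956 to 1608 with median-ratio scaling, 1676 with quantile normalization, 264 without the intensity trend and 611 in biosamples 7 and 8 alone. The count of lower genes moved from 3493 to 1702 with quantile normalization, 1729 without the trend, 559 in edgeR and 1541 in biosamples 7 and 8 alone. Leaving out each biosample gave 754 to 796 higher and 2525 to 3190 lower genes. Without the replicate block on paired fractions, 687 genes were higher and 2822 lower. Using subsample 2 of biosample 7 alone gave 905 and 3182, and subsample 1 alone 672 and 2697. The 27 genes that differed from normal mice became 0 in edgeR, 0 to 86 with each biosample left out and 11 without normal biosamples 2 and 4, the last 2 settings being chosen after seeing the data. The cause of these shifts was not tested.

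Of the 171 named genes past the threshold, 89 stayed past it in the same direction under all alternatives that tested them. The others lost the call under at least 1, most often without the intensity trend (70), in biosamples 7 and 8 alone (42), in edgeR (39) or without biosample 7 (14), and 13 lost it without the block. The sign turned in 1 of them, Tubb6, with quantile normalization (0.16). Among named genes that had not passed, Atf3 turned to 0.11 with a pseudocount of 5, 0.15 with median-ratio scaling, 1.05 with quantile normalization, 0.12 with subsample 1 and -0.60 to 0.62 with a biosample left out. Rpl28 turned to 0.11, 0.15 and 1.13 under the first 3 of these, 0.22 in edgeR, -0.51 to 0.64 with a biosample left out and 0.89 in biosamples 7 and 8. Rps27 turned to -0.17 with subsample 1 and spanned -0.09 to 0.36 with a biosample left out, S100b to 0.10 with median-ratio scaling and 0.15 in edgeR, and Hmgcs1 to 0.04 in edgeR. A floor of 3 reads was worth 0.0917 to 0.469 CPM in the paclitaxel libraries, so a value under its library's floor cannot be told from 0.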
